A study of Homo sapiens with 6 samples.

Results

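The binding of IGF2BP3 to the transcripts of 47 cyclins, cyclin-dependent kinases (CDKs) and cell cycle regulators was examined in IR-PAR-CLIP libraries of HCT116 cells. The genes were listed by name, with earlier results of these data known. Their binding sites were the crosslinked clusters with an overlap of 1 nt or more, strand included, with one of their exons in GENCODE release 44. Of the 244620 clusters of the 5 IGF2BP3 libraries, 1252 belonged to these genes, and 42 of the 47 genes had at least 1 cluster, beside 46.7% of all protein-coding genes. The list covered cyclins of the cell cycle and of transcription, their CDKs, CDK inhibitors, CDC25 phosphatases, the anaphase-promoting complex, E2F factors, the retinoblastoma family and mitotic kinases.

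HCT116 is a human colorectal carcinoma line, and its derivative HCT116 Tet-OsTIR1-PURO, which carries the OsTIR1 protein, was used. The cells took up 4-thiouridine at 100 µM over 15 h and were irradiated at 365 nm, so that a T-to-C conversion in the reads marks a crosslinked uridine. The endogenous protein was precipitated with a polyclonal antibody to IGF2BP3 that also recognises part of the IGF2BP2 pool, after RNase I at 0.05/0.05, 0.1/0.025 or 0.05/0.025 U/µL or RNase T1 at 1/1 or 0.25/0.25 U/µL (in-lysate/on-beads). An IgG control was made with RNase I at 0.1/0.025 U/µL, a concentration that the methods once write as 0.01 U/µL in-lysate and the labels give as 0.1 U/µL. Electroelution from the gel was used for RNase I 0.05/0.05 and for RNase T1 1/1, and the other IGF2BP3 libraries were made from crushed gel, so that RNase concentration, gel extraction and culture cannot be told apart. There was 1 library per condition, no test between conditions was possible, and all intervals below cover counting error only.

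IGF2BP3 belongs to the IGF2 mRNA-binding proteins, which carry RRM and KH domains, bind mainly 3′UTRs and are known to affect the stability, localisation and translation of mRNAs. It is an oncofetal protein, largely silent in adult tissues and re-expressed in many tumors. Cyclins activate CDKs at defined points of the cell cycle: D-type cyclins with CDK4 and CDK6 phosphorylate the retinoblastoma protein and release E2F factors, cyclins E and A with CDK2 drive S phase, and cyclins A and B with CDK1 drive mitosis.

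The clusters held 182448 to 2362467 reads per IGF2BP3 library and 324 reads in the IgG library. None of the 25 IgG clusters lay in the 47 genes. Among colorectal epithelial markers, the clusters of EPCAM were found in all 5 IGF2BP3 libraries, at 27.4 to 68.6 CPM (reads scaled to 1000000 cluster reads of the library), and KRT8, KRT18, KRT19 and CDH1 each in 4 of 5. CDX2 had a cluster in 1 library and CDX1 and VIL1 in none, and the leukocyte, mesenchymal and liver markers PTPRC, VIM and ALB had none. Cluster reads count crosslinked RNA and not RNA abundance, so that RNA level and binding cannot be told apart in any value below.

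Sites of genes at different steps of the cycle are shown first, as the RNA strand of GRCh38 (hg38) with T for U and the tetramers CATT, CAGT or CATA in capitals. The first 5 lie in 3′UTRs and have a cluster in each of the 5 libraries. The last lies in coding sequence and has a cluster in 4, and RNase T1 0.25/0.25 had a cluster elsewhere in the same merged site. CCND1 (chr11:69651574-69651598, plus strand) is shown because it lies in the gene with the most cluster reads, E2F3 (chr6:20491275-20491301, plus strand) because its ends were the same in both RNase T1 libraries, and CDK12 (chr17:39471588-39471612, plus strand) as a coding sequence site described below. CDK6 (chr7:92607902-92607926), CDC27 (chr17:47120377-47120398) and CCNA2 (chr4:121817536-121817565) lie on the minus strand and were printed as examples of a kinase of G1, an APC/C subunit and an S phase cyclin.
CCND1: attttataccccaataatcaactcg
CDK6: gtaataCATTtcttaaacctcacag
E2F3: gcacccatcacCATTtcaatttaattg
CDC27: CAGTatctccCATAaacaaatg
CCNA2: ttttaattttacaatCATTtctgaatacag
CDK12: ccttctactcactcaaagacatctg
The 5 sequences from 3′UTRs are whole RNase T1 1/1 clusters of 22 to 30 nt, each ending with G, the base after which RNase T1 cuts, and the CDK12 sequence is the end of a 54-nt cluster. At the same places the RNase I 0.05/0.05 clusters were longer, 1071 nt in CCND1, 146 nt in CDK6, 83 nt in E2F3, 359 nt in CDC27, 51 nt in CCNA2 and 319 nt in CDK12. The 5 from 3′UTRs were picked among RNase T1 1/1 clusters of at most 30 nt, so that the difference in length at these places is no measure of the enzymes. In the RNase T1 1/1 library these clusters held 75 reads in CCND1 (2.79% of its reads there), 74 in CDK6, 13 in E2F3, 9 in CDC27, 7 in CCNA2 and 10 in CDK12. Among them only the E2F3 cluster exceeded both 10 CPM and 0.5 conversion events per read, the criteria used below.

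A gene was counted as a target of a library when any of its clusters exceeded 10 CPM and also 0.5 conversion events per read. With RNase I 0.05/0.05, 35 of the 47 genes had a cluster, beside 43.7% of all protein-coding genes, and 16 were targets (34.0%, 95% Wilson interval 22.2% to 48.3%), beside 21.9%. With RNase I 0.1/0.025, 36 had a cluster (background 32%) and 24 were targets (background 21.3%). With RNase I 0.05/0.025, 32 had a cluster (background 30.3%) and 23 were targets (background 22%). With RNase T1 1/1, 32 had a cluster (background 37.6%) and 18 were targets (background 19.6%), and with RNase T1 0.25/0.25, 16 had a cluster (background 16.7%) and 13 were targets (background 13.7%).
The share of targets thus lay above that of all protein-coding genes in each library, as did the share of genes with a cluster. The 47 genes were chosen with earlier results of these data known, so that this difference describes the list and tests nothing. Among the genes with a cluster the target share was close to the background: 45.7% beside 50.1% with RNase I 0.05/0.05, 66.7% beside 66.5% at RNase I 0.1/0.025, 71.9% beside 72.6% with RNase I 0.05/0.025, 56.3% beside 52.2% with RNase T1 1/1 and 81.3% beside 82% with RNase T1 0.25/0.25. Expression was not measured here, so that no background of expressed genes could be used. With RNase T1 0.25/0.25 the smallest cluster of these genes held 4 reads and 10 CPM amounted to 1.82, so that the read criterion removed nothing there.

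Targets in all 5 libraries were 9 of the 47 genes (background 9.91%): CCND1, CCNG1, CCNI, CCNT1, CDC25B, CDC27, CDK12, CDK6 and E2F3. Without the shallowest library, RNase T1 0.25/0.25, the count was 12 (no background computed) and CCNT2, CDK4 and CDK8 were added. In any library 29 genes were targets (background 29.5%). Targets of at least 1 RNase I and no RNase T1 library were AURKA, CCNB1, CCNB2, CCND3, CDK13, E2F4, E2F8, PLK1 and WEE1 (9 of 47, background 7.61%), and CCNG2, an atypical cyclin linked to cell cycle arrest, was the only target of an RNase T1 and no RNase I library (background 2.54%).
No cluster was found in any library for CCND2, a D-type cyclin, CDK5, a kinase active mainly in neurons, CDKN2C, an inhibitor of CDK4 and CDK6, CDC25C, a phosphatase that activates CDK1 at mitosis, or E2F2, an activating E2F factor. Another 4 genes had a single cluster of 5 or 6 reads, in RNase I 0.05/0.05 or RNase I 0.1/0.025: AURKB, a kinase of the chromosomal passenger complex, CCNE1, an E-type cyclin, RBL1, the pocket protein p107, and E2F1, an activating E2F factor.

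**Figure D1:**
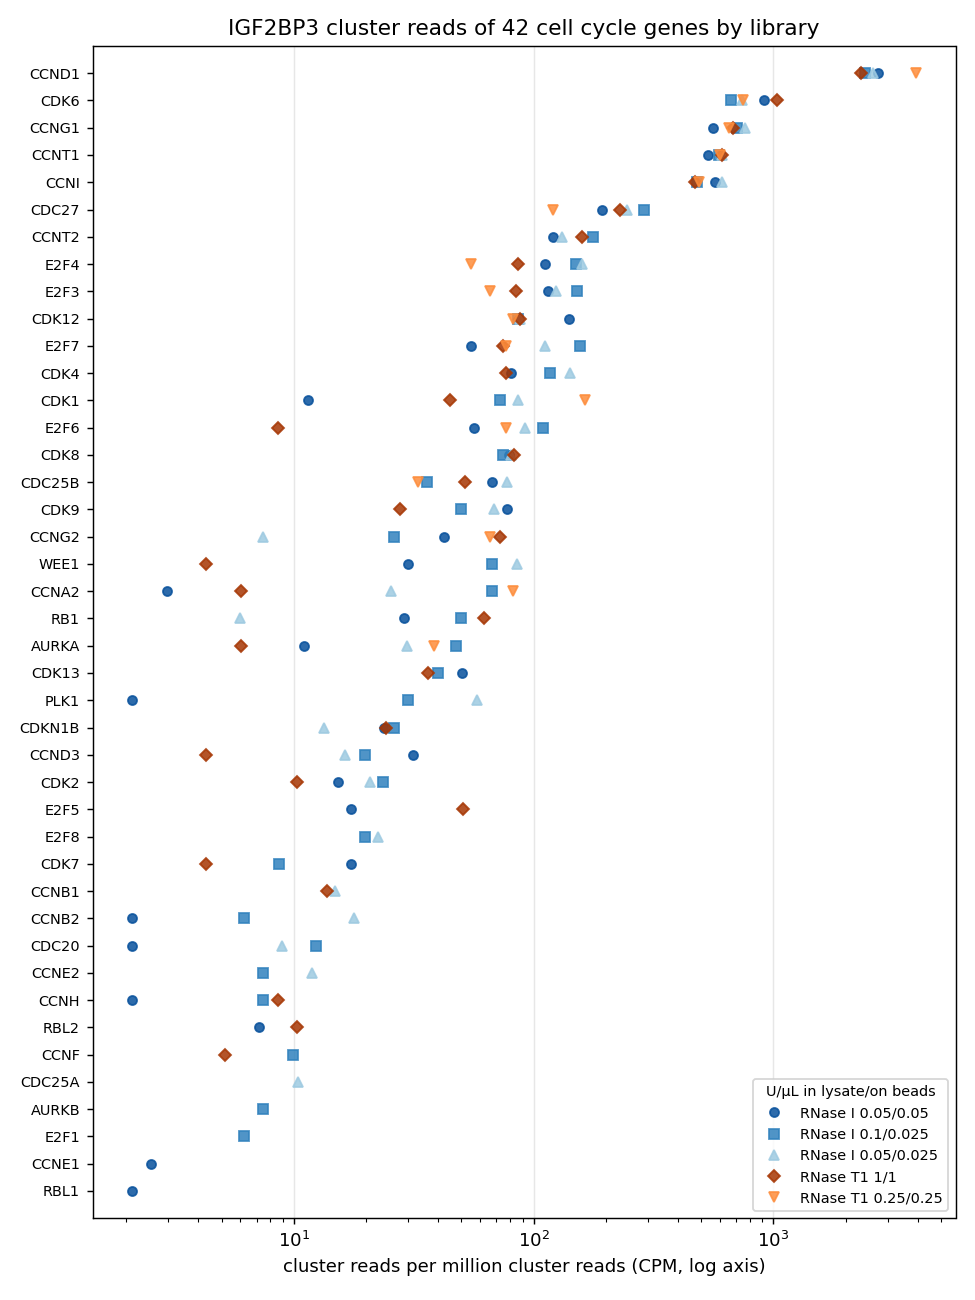
Cluster reads of the 42 genes with a cluster, as CPM on a log axis, with 1 symbol per library and the genes ordered by mean CPM; a library with no cluster in a gene has no symbol. CCND1 lies at 2325 to 3946 CPM, above all other genes in each library, and the lower genes are missing from several libraries.

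Among the cyclins of G1 and S phase, the cluster reads were almost all those of CCND1, the D-type cyclin that activates CDK4 and CDK6. CCND1 had 2739.9 CPM (95% exact Poisson interval 2674 to 2808) with RNase I 0.05/0.05, 2419 at RNase I 0.1/0.025, 2603 with RNase I 0.05/0.025, 2325 at RNase T1 1/1 and 3946 (3663 to 4245) with RNase T1 0.25/0.25. RNase T1 0.25/0.25, with 720 reads, was the highest, and the other 4 libraries lay close together. Per kb of exon its mean over the 5 libraries was 589.5 CPM, rank 29 of the 20046 protein-coding genes, and it held between 35.5% and 54.1% of the cluster reads of the 47 genes.
CCND3, the third D-type cyclin, had 74 reads (31.3 CPM) with RNase I 0.05/0.05, 16 (19.9 CPM) at RNase I 0.1/0.025, 11 (16.4 CPM) with RNase I 0.05/0.025, 5 (4.32 CPM) at RNase T1 1/1 and none with RNase T1 0.25/0.25. Its CPM was higher in each RNase I library than in either RNase T1 library. The smallest cluster of the 47 genes in RNase T1 0.25/0.25 corresponded to 21.9 CPM, above the CCND3 values in the crushed-gel RNase I libraries, so that such levels could not show there. The CCND3 ratio of RNase I 0.05/0.05 over RNase T1 1/1, 7.25 (2.97 to 23.0), was the highest among the 27 genes with at least 20 reads in either. CCNE2, the second E-type cyclin, had 6 reads at RNase I 0.1/0.025, 8 with RNase I 0.05/0.025 and none in the other libraries.

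The cyclins G1, G2 and I, which have no fixed CDK partner in the cycle, had 1174 to 1379 CPM in sum, and the sum varied less between libraries than for any group of S phase or mitotic genes below. CCNG1, which is induced by DNA damage, had 559 CPM with RNase I 0.05/0.05, 704 at RNase I 0.1/0.025, 762 with RNase I 0.05/0.025, 680.1 at RNase T1 1/1 and 652 with RNase T1 0.25/0.25. CCNI had 572, 479, 610, 473 and 488 CPM in the same order. Both were high in every library, with a highest-to-lowest spread smaller than that of CCND1.
CCNG2 had 100, 21, 5, 84 and 12 reads in the same order, or 42.3, 26.1, 7.45, 72.6 and 65.8 CPM, and was highest in the RNase T1 libraries.

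Among the cyclins of transcription, CCNT1, the partner of CDK9 in P-TEFb, had 535 CPM with RNase I 0.05/0.05, 591 at RNase I 0.1/0.025, 610 with RNase I 0.05/0.025, 614 at RNase T1 1/1 and 597 with RNase T1 0.25/0.25. These were the most even values of the 9 genes that were targets in all libraries. CCNT2, the other P-TEFb cyclin, had 284, 142, 88, 185 and 0 reads. Read counts here and below are not scaled to the library totals, which differ. In CPM, CCNT2 had ratios of 1.47 for RNase I 0.1/0.025 and 1.09 for RNase I 0.05/0.025 over RNase I 0.05/0.05. CCNH, which activates CDK7, had 5, 6, 0, 10 and 0 reads and was no target.

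CDK6, a G1 kinase with a canonical 3′UTR of 10222 nt, had 916 CPM with RNase I 0.05/0.05, 668 at RNase I 0.1/0.025, 740 with RNase I 0.05/0.025, 1034 at RNase T1 1/1 and 751 with RNase T1 0.25/0.25. It was higher in both electroeluted libraries than in the 3 crushed-gel libraries. CDK4, its close paralog, had 80.8, 117, 142 and 76.9 CPM in the first 4 of these libraries and no cluster in RNase T1 0.25/0.25. Per kb of exon, CDK6 had a mean of 67.1 CPM and CDK4 26.9.
CDK1, the mitotic kinase, had 27 reads (11.4 CPM, 7.53 to 16.6) with RNase I 0.05/0.05, 58 (72.2 CPM) at RNase I 0.1/0.025, 58 (86.5 CPM) with RNase I 0.05/0.025, 52 (44.9 CPM) at RNase T1 1/1 and 30 (164 CPM, 111 to 235) with RNase T1 0.25/0.25. Within each enzyme the crushed-gel libraries were higher than the electroeluted library. CDK2, the partner of cyclins E and A, had 36, 19, 14, 12 and 0 reads.

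Of the kinases that act on RNA polymerase II, CDK12, which with cyclin K phosphorylates the polymerase during elongation, had 141 CPM with RNase I 0.05/0.05, 85.9 at RNase I 0.1/0.025, 88.0 with RNase I 0.05/0.025, 88.1 at RNase T1 1/1 and 82.2 with RNase T1 0.25/0.25. CDK8, of the Mediator complex, had 187, 60, 54, 96 and 0 reads, CDK9, of P-TEFb, 183, 40, 46, 32 and 0, and CDK13, a paralog of CDK12, 119, 32, 0, 42 and 0. CDK7, the CDK-activating kinase, had 41, 7, 0, 5 and 0 reads and was no target.

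CDC25B, a phosphatase that removes inhibitory phosphates from CDKs, had 66.9, 36.1, 77.5, 51.8 and 32.9 CPM from RNase I 0.05/0.05 to RNase T1 0.25/0.25 in the order used above, the last value resting on 6 reads. CDC27, a core subunit of the anaphase-promoting complex, had 192, 290, 245, 229 and 121 CPM in that order, lowest in RNase T1 0.25/0.25. The 3 annotated pseudogenes named after CDC27 held 9 clusters with 84 reads, beside 1138 reads in CDC27 itself, and the assignment of reads between such near-identical copies is uncertain. CDC25A, which acts at the start of S phase, had 7 reads in RNase I 0.05/0.025 alone, and CDC20, an activator of the anaphase-promoting complex, had 5, 10 and 6 reads in the RNase I libraries and none with RNase T1.
CDKN1B, the CDK inhibitor p27, had 56, 21, 9, 28 and 0 reads and was no target in any library, although it had clusters in 4. WEE1, the kinase that holds CDK1 inactive, had 71, 54, 57, 5 and 0 reads, or 30.1, 67.2, 84.98, 4.32 and 0 CPM, and was a target in the 3 RNase I libraries only. Its ratio of RNase I 0.05/0.05 over RNase T1 1/1 was 6.96 (2.84 to 22.1).

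Of the E2F factors, E2F3, an activator, had 115 CPM with RNase I 0.05/0.05, 152 at RNase I 0.1/0.025, 124 with RNase I 0.05/0.025, 84.7 at RNase T1 1/1 and 65.8 with RNase T1 0.25/0.25. E2F4, a repressor that acts with p107 and p130, had 111, 151, 160 and 86.4 CPM in the first 4 libraries and 54.8 CPM in RNase T1 0.25/0.25. Both were higher in each RNase I library than in either RNase T1 library. The atypical repressors differed. E2F7 had 130, 126, 75, 86 and 14 reads, and its CPM lay between 55.0 and 156.8. E2F8 had 16 and 15 reads in the crushed-gel RNase I libraries and none elsewhere.
E2F6, a repressor linked to Polycomb complexes, had 133, 88, 62, 10 and 14 reads, or 56.3, 109.5, 92.4, 8.64 and 76.7 CPM. It was low in RNase T1 1/1 alone, and the ratio of RNase I 0.05/0.05 over that library was 6.51 (3.43 to 13.9). E2F5, another repressor, had 41 reads in the RNase I and 59 in the RNase T1 electroeluted library and no cluster in the 3 crushed-gel libraries. The ratio between these libraries, RNase I over RNase T1, was 0.34 (0.22 to 0.52).
Among the pocket proteins, which hold E2F factors inactive, RB1 had 68, 40, 4, 72 and 0 reads, with a ratio of RNase I 0.05/0.05 over RNase T1 1/1 of 0.46 (0.33 to 0.65), and RBL2, p130, had 17 and 12 reads in the electroeluted libraries only. The lowest such ratio was that of CDK1, 0.25 (0.15 to 0.41). The CPM was higher with RNase I 0.05/0.05 than with RNase T1 1/1 in 15 of the 27 genes with at least 20 reads in either (background 54.9%), with a median ratio of 1.18 beside 1.102 over all genes so filtered.

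Per kb of exon, the 10 highest genes were CCND1, CCNG1, CCNI, CCNT1, CDK6, CDC27, E2F4, CDK4, E2F3 and CDK1, with means of 589.5, 217, 129.5, 80.0, 67.1, 31.5, 31.3, 26.9, 20.9 and 19.4 CPM per kb. From CCND1 down to CCNT1 the ranges over the 5 libraries did not overlap between neighbours. CCNT1, at 72.6 to 83.2, overlapped CDK6, at 54.6 to 84.4, and from CDC27 down each range overlapped the next. The median over the genes with a cluster was 5.71 CPM per kb with RNase I 0.05/0.05 beside 6.19 over all protein-coding genes with a cluster, 8.49 beside 8.83 at RNase I 0.1/0.025, 13.3 beside 9.34 with RNase I 0.05/0.025, 9.44 beside 7.17 with RNase T1 1/1 and 18.3 beside 18.1 with RNase T1 0.25/0.25.
Among 59 other genes of the cell cycle, 49 had a cluster in some library, and 20, 28, 30, 19 and 20 were targets from RNase I 0.05/0.05 to RNase T1 0.25/0.25. The highest per kb were CDKN1A, the CDK inhibitor p21, at a mean of 1653 CPM per kb, CKS2, a CDK-binding protein, at 566, and TFDP1, the partner of E2F factors, at 64.6. The IgG library had 1 cluster of 6 reads in CDKN1A.

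CCND1 was covered along its 3′UTR (chr11:69651280-69654474, 3195 nt) in every library, and the position of its strongest cluster differed. Positions are counted from the start of the 3′UTR, and shares are of the gene's reads in the library. With RNase I 0.1/0.025 the strongest cluster spanned +1926 to +2144 and held 694 reads (35.7%), and with RNase I 0.05/0.025 it spanned +1929 to +2282 and held 771 reads (44.2%). With RNase I 0.05/0.05 a cluster at +1912 to +2152 held 1947 reads (30.1%), and one of 1071 nt at +231 to +1301 held 2012 (31.1%).
The region from +1929 to +2144 thus lay in the strongest or the next strongest cluster of each RNase I library. With RNase T1 1/1 the strongest cluster lay at +852 to +1046 with 933 reads (34.7%), and the cluster at +1922 to +2032 held 5.09%. With RNase T1 0.25/0.25 the strongest single cluster lay at +1922 to +2048 with 111 reads (15.4%). The number of CCND1 clusters was 13 with RNase I 0.05/0.05, 18 and 20 in the other RNase I libraries, 28 with RNase T1 1/1 and 23 with RNase T1 0.25/0.25, and their median length was 182, 123.5, 86.5, 73 and 47 nt in that order.

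**Figure D2:**
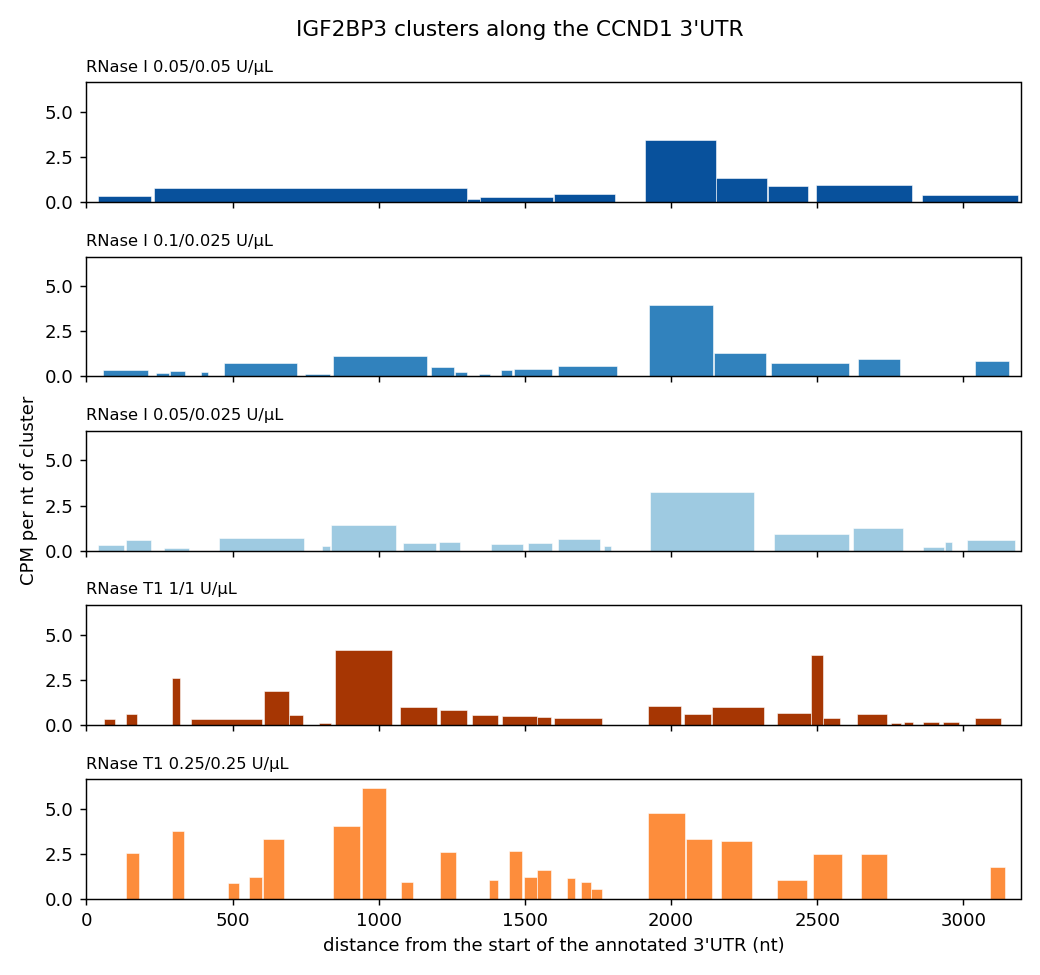
Clusters along the CCND1 3′UTR in the 5 IGF2BP3 libraries, drawn by distance from the 3′UTR start, with the width of a bar giving the cluster length and its area the CPM (height in CPM per nt). The cluster starting at +1912 to +1929 is the highest in the 3 RNase I libraries, and that at +852 to +1046 is the highest with RNase T1 1/1 U/µL.

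The RNase I region of CCND1 contains a TGCTGCT string, the complement of the seed (bases 2 to 8) of miR-15 and miR-16, which are known regulators of this mRNA. The mature sequences of RefSeq (GRCh38.p14) are shown with the seed in capitals, and below them the CCND1 string (chr11:69653315-69653321, plus strand) and a let-7 string, CTACCTC, in the E2F6 3′UTR (chr2:11445454-11445460, minus strand) with the string in capitals. They are shown because they are the strings with the most cluster reads of each kind.
hsa-miR-16-5p: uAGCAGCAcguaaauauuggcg
hsa-miR-15a-5p: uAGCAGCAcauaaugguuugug
hsa-let-7a-5p: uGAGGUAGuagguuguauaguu
CCND1: cacattgttTGCTGCTattggagga
E2F6: tagctgtttCTACCTCattgggtaa
The clusters over the CCND1 string held 1947, 694 and 771 reads in the RNase I libraries in the order above and 111 with RNase T1 0.25/0.25, and RNase T1 1/1 had no cluster over it, since one ended at +2032 and the next began at +2045. The clusters over the E2F6 string held 62, 41 and 26 reads with RNase I, none with RNase T1 1/1 and 9 with RNase T1 0.25/0.25. The canonical 3′UTRs of the 47 genes held 23 TGCTGCT strings in 16 genes, of which 8 lay under a cluster, and 12 CTACCTC strings in 10 genes, of which 2 did. Within clusters in any exon, TGCTGCT was found at 10 places in 8 genes and in 2.41% of the RNase I 0.05/0.05 clusters, beside 1.68% over all protein-coding genes, and CTACCTC at 5 places in 5 genes and in 0.802% beside 0.671%. These strings were searched on the RNA strand only, and a match is a description of letters and no measurement of miRNA binding.

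Clusters touching an annotated 3′UTR held most of the reads: 95.01% with RNase I 0.05/0.05, 94.2% at RNase I 0.1/0.025, 91.9% with RNase I 0.05/0.025, 94.4% at RNase T1 1/1 and 95.8% with RNase T1 0.25/0.25, beside 87.0% to 92.0% over all protein-coding genes. Without CCND1 the shares were 92.1%, 91.1%, 87.5%, 91.2% and 90.8%. A cluster can overlap a 3′UTR of one transcript and the coding sequence of another. With coding sequence taken before 3′UTR and CCND1 included, the shares were 81.2%, 80.0%, 79.2%, 88.6% and 93.4%, beside 69.0%, 74.8%, 72.2%, 85.8% and 84.5% over all protein-coding genes. In that order and without CCND1 they were 68.9%, 69.1%, 67.4%, 82.5% and 85.6%.
With 3′UTR taken before coding sequence, CDK12, singled out after its values were seen, was the only one of the 9 genes targeted in all libraries with most of its RNase I reads in clusters assigned to coding sequence. This depends on the order, since CDC27 and CCNI had many sites that overlapped both coding sequence and a 3′UTR and were counted as 3′UTR. The share of its reads in clusters assigned to coding sequence was 70.5% with RNase I 0.05/0.05, 94.2% at RNase I 0.1/0.025, 91.5% with RNase I 0.05/0.025, 27.5% at RNase T1 1/1 (28 of 102 reads) and 33.3% with RNase T1 0.25/0.25 (only 5 of 15 reads). The share was thus higher in each RNase I library than in either RNase T1 library, and with RNase T1 1/1 it lay below the 31.8% of CCNI. Genes with few reads also had most of them in coding sequence, such as PLK1 at 100%, 100% and 59.0% in the RNase I libraries. The only CDK12 site present in all 5 libraries lay in coding sequence (chr17:39471430-39471748, plus strand) with 107, 31, 25, 10 and 5 reads.
CCNG1 also had a site in all 5 libraries that overlapped coding sequence and, in another transcript, 5′UTR but no 3′UTR (chr5:163441143-163441320, plus strand), with 106, 30, 47, 29 and 10 reads.

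**Figure D3:**
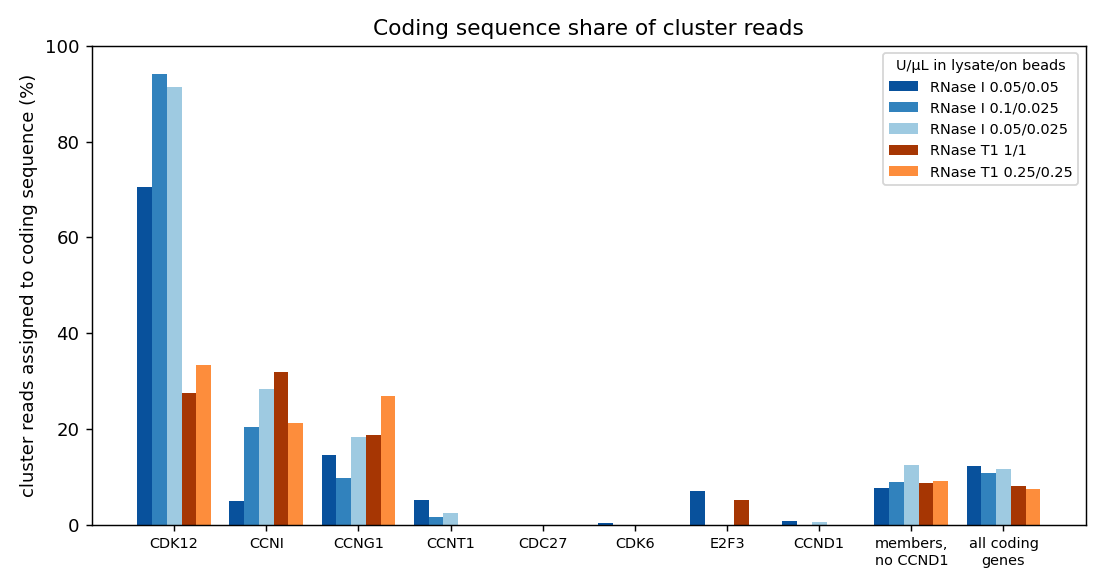
Share of cluster reads in clusters assigned to coding sequence, with 3′UTR taken first, for 8 of the genes, for the 47 genes without CCND1 and for all protein-coding genes, with 1 bar per library. CDK12 is at 70.5% to 94.2% with RNase I and at 27.5% (28 of 102 reads) and 33.3% (5 of 15 reads) with RNase T1, and CCND1 is below 1% in every library.

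The clusters of the 47 genes merged into 420 sites, of which 202 were found in 1 library, 88 in 2, 57 in 3, 35 in 4 and 38 in all 5. The 38 lay in 14 genes, with 8 in CCNT1, 7 in CCND1, 5 in CDK6 and 4 in CCNG1, and 36 of them overlapped a 3′UTR. The merged site around the printed CCNA2 sequence (chr4:121817490-121817590) was among them, with 7, 19, 12, 7 and 10 reads. An RNase I 0.05/0.05 cluster overlapped 80.6% of the RNase T1 1/1 clusters, beside 76.9% over all protein-coding genes, and in the other direction the share was 41.98%, beside 38.1%. With a reciprocal overlap of 50% the share of RNase T1 1/1 clusters was 21.1%.
The clusters of the 2 enzymes differed in length and last base. Their median length was 55, 56 and 53 nt with RNase I and 35.5 and 39 nt with RNase T1, and the last base was G in 11.8% to 14.0% of the RNase I clusters and in 95.1% and 89.0% of the RNase T1 clusters. RNase T1 clusters without any G before the last base made up 15.5% and 15.4%, and at most 0.840% of the RNase I clusters in any library had none.

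In most genes covered in both electroeluted libraries, RNase I 0.05/0.05 clusters spanned more of the 3′UTR than those of RNase T1 1/1. Of the 28 genes with 3′UTR clusters in both electroeluted libraries, 27 were covered more broadly with RNase I 0.05/0.05 than with RNase T1 1/1 (96.4%, 95% Wilson interval 82.3% to 99.4%), beside 94.7% of all protein-coding genes, with medians of 25.7% and 9.52% of the canonical 3′UTR. The exception was CDK1, at 11.7% and 13.3%, and CDK4 and E2F5 differed by less than 1 percentage point. CCNH and CDK7 had 3′UTR coverage with RNase T1 1/1 alone, at 30.3% and 8.72%. The RNase I 0.05/0.05 library also had more cluster reads, and the part of depth in this difference was not tested; with RNase I 0.05/0.025, a library less deep than RNase T1 1/1, 17 of 26 genes were covered more broadly (65.4%), beside 60.0% of all genes.
CCNI, whose 3′UTR has 1067 nt, was covered to 95.9% with RNase I 0.05/0.05, 70.0% at RNase I 0.1/0.025, 70.5% with RNase I 0.05/0.025, 50.8% at RNase T1 1/1 and 33.1% with RNase T1 0.25/0.25. CCND1 was covered to 92.7%, 74.6%, 74.9%, 72.5% and 45.1% in the same order. E2F4 had a wider span, at 78.7%, 60.7%, 51.0%, 35.3% and 2.88%. In CDK6 the coverage was 50.4%, 23.3%, 20.7%, 21.4% and 5.07%.

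**Figure D4:**
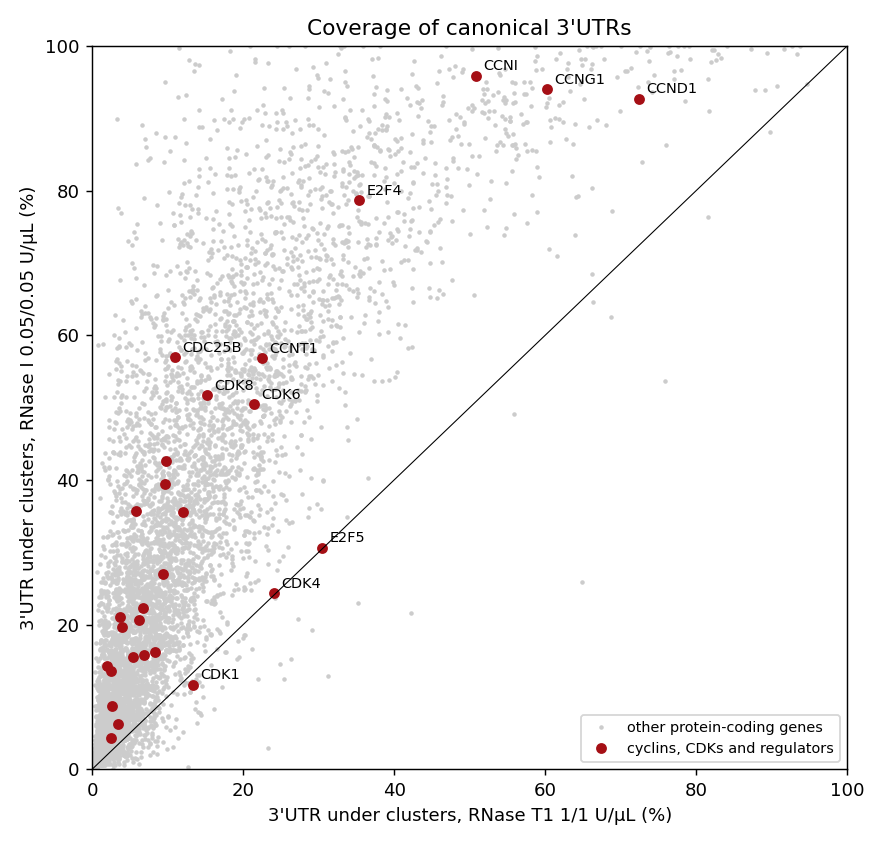
Percent of the canonical 3′UTR under clusters with RNase T1 1/1 (x axis) and RNase I 0.05/0.05 U/µL (y axis), with 1 point per gene covered in both libraries, the cell cycle genes in red, other protein-coding genes in grey and a line of equal coverage. All red points but CDK1 lie above the line, with CDK4 and E2F5 next to it.

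The tetramers CATT, CAGT and CATA, which contain or resemble the CA-rich motif known for the IGF2BP family, were searched in the clusters on the RNA strand. At least 1 of the 3 was found in 66.0% of the RNase I 0.05/0.05 clusters, 69.8% at RNase I 0.1/0.025, 71.4% with RNase I 0.05/0.025, 54.2% at RNase T1 1/1 and 56.0% with RNase T1 0.25/0.25. Over all protein-coding genes the shares were 66.1%, 68.7%, 67.5%, 54.8% and 62.8%. Per 100 nt of cluster the 47 genes had 1.76, 1.97, 1.87, 1.81 and 1.94 such tetramers, beside 1.77, 1.96, 1.91, 2.04 and 2.25 over all protein-coding genes.
GGGG was found in 12.8%, 10.6% and 9.66% of the RNase I clusters and in 3.52% and 3.30% of the RNase T1 clusters, beside 12.8%, 9.82%, 9.17%, 5.24% and 4.06% over all protein-coding genes. Without CCND1 the RNase T1 shares were 1.17% and 1.47%. The AU-rich string ATTTA, which can overlap CATT, was found in 15.2%, 12.8%, 12.6%, 15.1% and 17.6%, beside 10.95%, 10.95%, 10.88%, 12.47% and 11.96%. The median of conversion events per read was 0.636, 0.667, 0.6, 0.545 and 0.571, beside 0.636, 0.667, 0.611, 0.551 and 0.584.

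CCNA2, CDK1, PLK1, AURKA, WEE1 and E2F7, picked here after their values were seen, had over 2-fold higher CPM in both crushed-gel RNase I libraries than in the electroeluted one. A higher CPM of any size in both was not particular to them. It was found in 15 of the 29 genes with at least 20 reads in any RNase I library, and the share over all genes is not given. Others of the list did not follow. CCNE1 and RBL1 had reads, 6 and 5, in RNase I 0.05/0.05 alone. CDC25B had 66.9 CPM there beside 36.1 at RNase I 0.1/0.025 and 77.5 with RNase I 0.05/0.025. CCNA2, the cyclin of S phase and early mitosis, had 7 reads (2.96 CPM) with RNase I 0.05/0.05, 54 (67.2 CPM) at RNase I 0.1/0.025 and 17 (25.3 CPM) with RNase I 0.05/0.025, and 7 (6.05 CPM) at RNase T1 1/1 and 15 (82.2 CPM) with RNase T1 0.25/0.25. The ratio of RNase I 0.1/0.025 over 0.05/0.05 was 22.7 (10.3 to 59.1). All 3 crushed-gel libraries lay above both electroeluted libraries.
PLK1, a kinase of mitotic entry, had 5 reads (2.12 CPM) with RNase I 0.05/0.05, 24 (29.9 CPM) at RNase I 0.1/0.025 and 39 (58.1 CPM) with RNase I 0.05/0.025 and none with RNase T1, and most of its clusters lay in coding sequence. AURKA, a kinase of the spindle poles, had 26, 38 and 20 reads (11.01, 47.3 and 29.8 CPM) with RNase I and 7 reads in each RNase T1 library (6.05 and 38.4 CPM), so that the CPM differ there only through the library totals. For CDK1, whose values are given above, the ratio of RNase I 0.1/0.025 over 0.05/0.05 was 6.32 (3.94 to 10.4), that of RNase I 0.05/0.025 over 0.05/0.05 was 7.57 (4.72 to 12.4) and that of RNase T1 0.25/0.25 over 1/1 was 3.66 (2.25 to 5.84). CCNB1 and CCNB2, the B-type cyclins of mitosis, had 0, 0, 10, 16 and 0 and 5, 5, 12, 0 and 0 reads, and CCNF, a cyclin that acts as an F-box protein, 0, 8, 0, 6 and 0.

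Over the group of CCNA2, CCNB1, CCNB2 and CCNF the sum was 5.08 CPM with RNase I 0.05/0.05, 83.4 at RNase I 0.1/0.025, 58.1 with RNase I 0.05/0.025, 25.1 at RNase T1 1/1 and 82.2 with RNase T1 0.25/0.25, and over PLK1, AURKA and AURKB it was 13.1, 84.6, 88.0, 6.05 and 38.4 CPM. In both groups each crushed-gel library lay above both electroeluted libraries. These sums largely restate genes picked after their values were seen. CCNA2 gave 67.2 of the 83.4 CPM with RNase I 0.1/0.025, and AURKA and PLK1 together gave most of each kinase sum. With RNase T1 0.25/0.25 the sums were CCNA2 alone (15 reads) and AURKA alone (7 reads). The smallest cluster of the listed genes there corresponded to 21.9 CPM, so that any kinase cluster would exceed both electroeluted kinase sums. The sum of CCNG1, CCNG2 and CCNI was 1174 CPM with RNase I 0.05/0.05 and 1209.7 and 1379 in the crushed-gel RNase I libraries. The sum of CDK7, CDK8, CDK9, CDK12 and CDK13 was lower in the crushed-gel libraries, at 259 and 237 CPM beside 365 with RNase I, and at 82.2 beside 239 with RNase T1. The median ratio over all protein-coding genes with at least 20 reads in either library was itself below 1, at 0.790 and 0.732 for the crushed-gel RNase I libraries over RNase I 0.05/0.05 and 0.406 for RNase T1 0.25/0.25 over 1/1.
Of the 29 genes with at least 20 reads in any RNase I library, 6 had a CPM over 2-fold higher in both crushed-gel RNase I libraries than in RNase I 0.05/0.05 (AURKA, CCNA2, CDK1, E2F7, PLK1 and WEE1), beside 2.46% of all protein-coding genes so filtered. A gene can pass this filter through the library in which it is high, so that the count is a description. With no filter on reads it was 10 of 42 (background 2.87%), with CCNB2, CCNE2, CDC20 and E2F8 added, and with at least 20 reads in RNase T1 1/1, a library outside this comparison, it was 2 of 21, CDK1 and E2F7 (background 1.68%). With at least 20 reads in RNase I 0.05/0.05 it was 4 of 27 (background 1.72%). Among the other cell cycle genes 11 of 43 passed with at least 20 reads in any RNase I library (background 2.46%). They were BIRC5, CDCA8, CDT1, FBXO5, FOXM1, GMNN, INCENP, MAD2L1, MYBL2, PLK4 and TPX2. With at least 20 reads in RNase T1 1/1 the count was 3 of 25 (background 1.68%). For at least 20 reads in RNase I 0.05/0.05 it was 6 of 38 (background 1.72%).
CCNA2, CDK1 and PLK1 had more reads, and not only a higher CPM, in both crushed-gel RNase I libraries than in the deeper RNase I 0.05/0.05 library (background 1.13%). AURKA, CCNA2 and CDK1 were also over 2-fold higher in RNase T1 0.25/0.25 than in RNase T1 1/1 (3 of 29, background 1.3%). AURKA had 7 reads in each RNase T1 library, at different sites, and CCNA2 had 7 with 1/1 and 15 with 0.25/0.25. Both had 6.05 CPM with RNase T1 1/1. The smallest cluster of these genes with RNase T1 0.25/0.25 corresponded to 21.9 CPM, so that any cluster there would have passed for AURKA and CCNA2. CDK1 had 52 reads with RNase T1 1/1 and 30 with 0.25/0.25. In the opposite direction E2F5 alone was over 2-fold lower in both crushed-gel RNase I libraries (1 of 29, background 21.7%). The smallest cluster listed for these genes held 2 reads with RNase I 0.05/0.05 and 3 with the other RNase I libraries, or 0.847, 3.73 and 4.47 CPM, and the part of this limit in the low values was not tested.

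**Figure D5:**
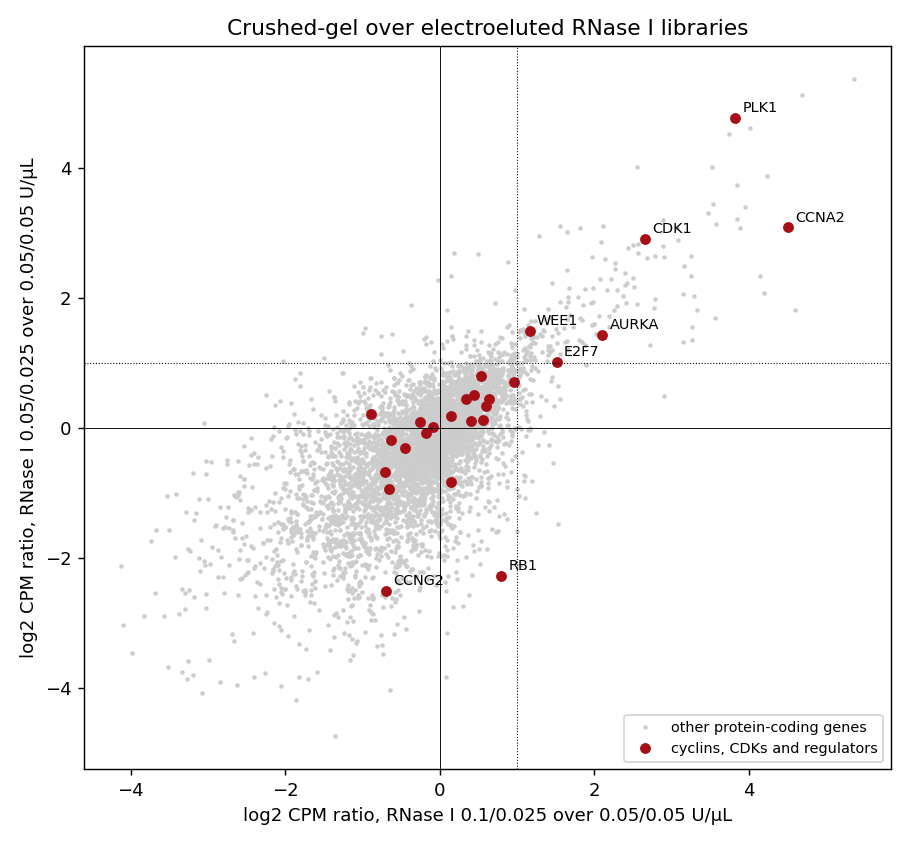
Log2 ratio of CPM in RNase I 0.1/0.025 (x axis) and RNase I 0.05/0.025 U/µL (y axis), both from crushed gel, over RNase I 0.05/0.05 U/µL, which was electroeluted, for 5326 protein-coding genes with reads in all 3 libraries and at least 20 in 1, with 26 of the cell cycle genes in red. Dotted lines mark a 2-fold increase, above which CCNA2, PLK1, CDK1, AURKA, WEE1 and E2F7 lie on both axes, while RB1 and CCNG2 are lowest on the y axis.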

How the data were processed

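The 5 IGF2BP3 and 1 IgG libraries were each deposited as a list of clusters. Per the methods, molecular identifiers were taken from the reads (UMI-tools 1.1.1), which were then trimmed (Trimmomatic 0.30), aligned to GRCh38.p13 (bowtie 0.12.7), deduplicated by UMI-tools and grouped into clusters for each library by PARalyzer. The deposited values are raw counts of reads and of T-to-C conversion events per cluster, not normalized. The deposited mode score, a fraction, was not used. Cluster sequences were identical to hg38 in 1252 of 1252 cases.

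CPM were computed over all cluster reads of a library, which are not its sequencing depth, and clusters were assigned with GENCODE release 44 with 3′UTR taken before coding sequence and 5′UTR last. No member cluster overlapped a same-strand exon of another gene. Python 3.11.15, pandas 2.3.3, numpy 2.4.6, scipy 1.17.1, matplotlib 3.10.9 and bedtools 2.31.1 were used, and the assignment and target call were tested on simulated data. Poisson intervals of reads and intervals of ratios are exact and those of shares are Wilson intervals, all at 95%, and cover counting error only.

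The 47 genes and the lists were chosen with earlier results of these data known. Values in every library were given for targets in all 5 libraries, the 10 highest genes per kb, CCND1, CCND3, CCNG1 and CDK4, and the 3 highest and 3 lowest ratios between the electroeluted libraries; genes outside this rule are given for completeness or where said. Alternatives changed the read and conversion criteria, the gene assignment, the feature order, the 3′UTR definition, the overlap, the denominator and the cluster ends.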

Additional observations from a re-analysis of the deposited data

Results flagged for a closer look

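In 8 of the genes the ratio of crushed-gel over electroeluted CPM lay on one side of 1 in both RNase I comparisons (RNase I 0.1/0.025 and 0.05/0.025 over 0.05/0.05 U/µL) and on the other side in RNase T1 (0.25/0.25 over 1/1 U/µL), among genes with reads enough to be compared. In none of the 8 did both enzymes show a change over 2-fold, and the share of all genes with this pattern was not computed. The median ratios over all protein-coding genes with at least 20 reads in either library were 0.790 and 0.732 with RNase I and 0.406 with RNase T1. Set against these medians, CCND1, CCNG1, CCNT1, CDC27, E2F3 and E2F4 lay above in every comparison and did not go opposite ways. The difference between the enzymes was not tested, since there was 1 library per condition. CCND1 was higher with RNase T1, at a ratio of 1.70, and lower with RNase I, at 0.883 and 0.9501. CCNG1 had 0.959 with RNase T1 beside 1.26 and 1.36 with RNase I, and CCNT1 had 0.974 beside 1.104 and 1.14. CDC27 had 0.527 beside 1.51 and 1.27. E2F3 had 0.777 beside 1.32 and 1.07, and E2F4 had 0.634 beside 1.35 and 1.43. CCNT2 and CDK4 had a ratio of 0, with no cluster in RNase T1 0.25/0.25, beside 1.47 and 1.09 for CCNT2 and 1.45 and 1.75 for CDK4. RNase T1 0.25/0.25 had the fewest cluster reads, 182448, and its smallest cluster in these genes corresponded to 21.9 CPM. The part of depth in these ratios was not tested.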

How the results depend on the processing

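No paired analysis was possible because each condition had 1 library. Of the values recomputed under the alternatives chosen at the start, 33 moved by less than their interval or by less than 1.5 times for counts, and 21 moved more. When 0.75 conversion events per read had to be exceeded, RNase I 0.05/0.05 had 6 targets, RNase I 0.05/0.025 had 14 and RNase T1 1/1 had 10, beside 1350, 2301 and 1466 of the 20046 protein-coding genes. With at least 20 reads in place of 10 CPM the counts were 13 for RNase I 0.1/0.025, 8 for RNase I 0.05/0.025, 10 for RNase T1 1/1 and 3 for RNase T1 0.25/0.25, beside 2478, 2102, 2682 and 505 of all protein-coding genes. With more than 20 CPM they were 14 with RNase I 0.05/0.025 and 8 with RNase T1 1/1, beside 2748 and 2212. With coding sequence before 3′UTR the 3′UTR shares were 81.2%, 80.0%, 79.2%, 88.6% and 93.4%. With clusters above 10 CPM only, 14 of 14 genes had broader 3′UTR coverage with RNase I 0.05/0.05, beside 92.6% of all protein-coding genes. Fewer genes were covered in both libraries there. The overlap of RNase T1 1/1 clusters was 21.1% with a reciprocal overlap of 50%. After extension of each cluster by 10 nt at either end, 75.4%, 77.0%, 76.9%, 65.5% and 68.1% held a tetramer. Chosen after seeing the data, leaving out CCND1 gave 3′UTR shares of 92.1%, 91.1%, 87.5%, 91.2% and 90.8%, and the count of genes over 2-fold higher in crushed gel was 2 with at least 20 reads in RNase T1 1/1 and 10 with no filter. The cause of these changes was not tested except where stated. In RNase T1 0.25/0.25 a cluster of 4 reads already exceeds 10 CPM, so that absence of a cluster there is not absence of binding.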
